A study of Saccharomyces cerevisiae with 2 samples.

Results

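The genes described here encode the enzymes with which budding yeast makes isoleucine, valine and leucine, the branched-chain amino acids. They were chosen by identifier, and the rule used no measured value: ILV1, ILV2, ILV6, ILV5, ILV3, LEU4, LEU9, LEU1, BAT1 and BAT2. The choice was made with earlier results of these data known. All 10 were among the 4685 genes of the deposited table, and all 10 passed the expression filter (a mean of the footprint and RNA values of at least 5 RPKM) that left 4642 genes. The study measured ribosome-protected mRNA fragments (footprints) and cytoplasm-enriched, rRNA-depleted RNA in Saccharomyces cerevisiae BY4741, a MATa haploid laboratory strain, with 1 library of each kind from cells in rich glucose medium (YPD) at mid-log phase. No replicate stands behind any value, so no test is given, and neighbours in an order of genes cannot be said to differ. The depth of both libraries is unknown, because the table gives RPKM, read counts scaled to gene length and library size. Values are averages over a culture, in which fewer cells using a gene and less RNA per cell cannot be told apart.

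Isoleucine and valine are made in parallel by the same mitochondrial enzymes. Threonine deaminase opens the isoleucine branch, and acetolactate synthase, ketol-acid reductoisomerase and dihydroxyacid dehydratase then serve both branches. Leucine synthesis leaves the valine branch through isopropylmalate synthase, continues through isopropylmalate isomerase and the dehydrogenase encoded by LEU2, and ends, like the other branches, with a branched-chain aminotransferase. Isoleucine, valine and leucine each act back on early enzymes of the pathway. The transcription factors Gcn4 and Leu3 are known activators of many of these genes. BY4741 carries a deletion of LEU2 and depends on leucine from the medium, and LEU2 is not among the listed genes. The other deleted markers of the strain, URA3 and MET17, are not listed either, while HIS3, which is deleted in part, is listed.

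All 10 genes were abundant mRNAs, and 9 of them had a footprint to RNA ratio within 1.5-fold of the median gene, ILV5 being higher. Their footprint values ran from 101.2 to 3527 RPKM with a median of 477.5 RPKM, against 39.4 RPKM for the median of all analysed genes. Their RNA values ran from 146.2 to 2009 RPKM with a median of 477.8 RPKM, against 49.6 RPKM for all genes. All 10 stood in the top 20% of analysed genes by RNA, 8 in the top 10%, and 7 in the top 10% by footprints. By RPKM times coding length they took 1.10% of all listed footprints and 0.991% of all listed RNA, and ILV5 alone took 0.433% of the footprints and 0.263% of the RNA. The order of the set's shares turned without ILV5 (0.671% of footprints and 0.728% of RNA) and by summed RPKM without coding length (0.696% of footprints and 0.738% of RNA).

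**Figure D1:**
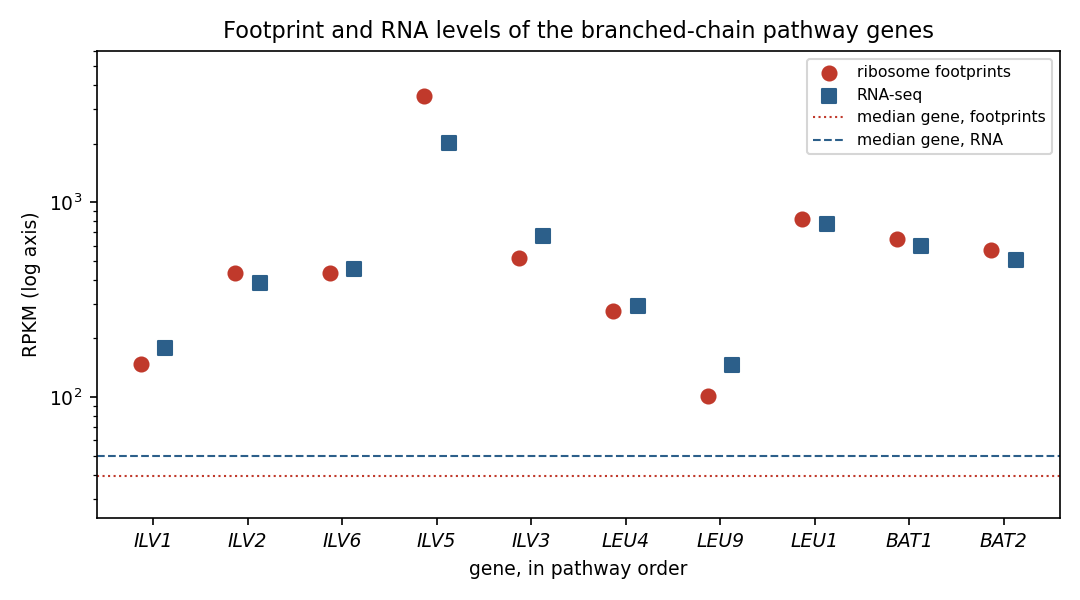
Ribosome footprint (circles) and RNA-seq (squares) values of the 10 genes in pathway order, in RPKM on a log axis, with 1 library per assay. All 20 points lie above the medians of all analysed genes (39.4 RPKM for footprints, dotted, and 49.6 RPKM for RNA, dashed), and ILV5 stands above the other genes in both assays.

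Ribosome density, used below, is log2 of footprint over RNA RPKM relative to the median gene, whose footprint to RNA ratio was 0.821. A density of 1 is thus 2 times the footprints per unit of RNA of the median gene. The median density of the 10 genes was 0.29, with a range from -0.25 to 1.10. Of the 10, 8 lay above the median gene, as did by construction 50.0% of all analysed genes. ILV5 was the 1 gene more than 2-fold above the median gene, where 6.79% of all genes lay, and none was more than 2-fold below it, where 13.1% of all genes lay. At a 1.5-fold limit the count above was again 1, where 21.7% of all genes lay, and the count below was again 0, where 25.0% lay. Centred instead on total footprint over total RNA, 4 of the 10 lay above 0 and ILV5, at 0.72, was no longer past 2-fold. That centre lies above the median gene: LEU1, at -0.02 from it, was denser than 67.3% of analysed genes, and BAT1, at 0.02, than 69.4%. Fewer of all analysed genes thus lay above it than the 50.0% above the median gene. Within the set, footprints spanned 34.9-fold and RNA 13.7-fold, while density spanned 2.54-fold. The SD over the 10 genes was 1.40 for log2 footprint, 1.09 for log2 RNA and 0.37 for density. Over all analysed genes, scarce ones included, the SD was 2.21, 1.61 and 0.96. In the top 10% of genes by RNA, which held 8 of the 10, the interquartile range of density was 0.37 to 0.95.

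**Figure D2:**
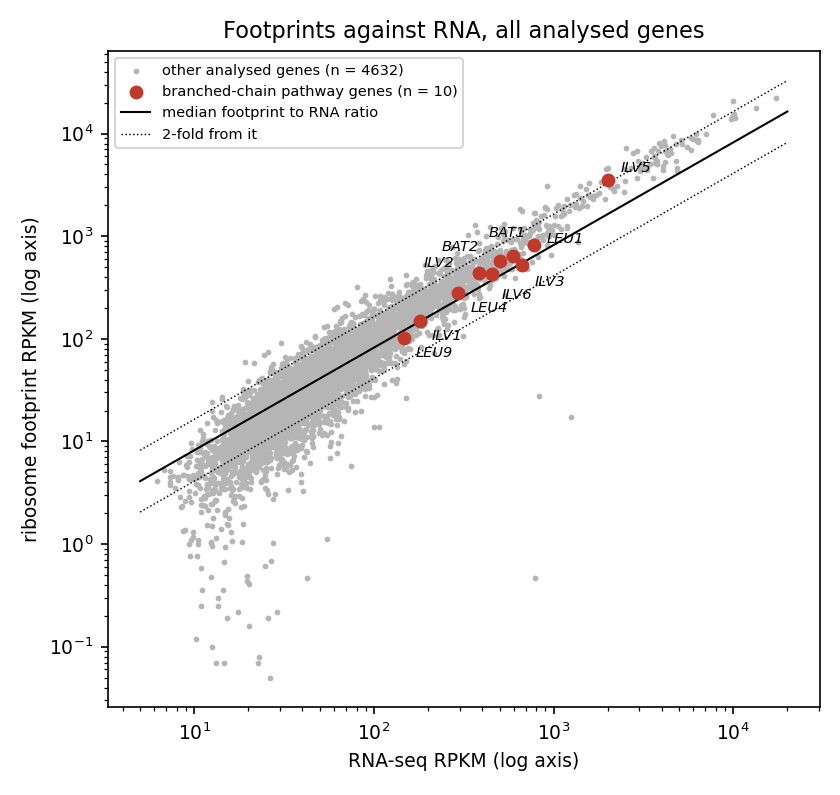
Footprint RPKM against RNA-seq RPKM for 4642 analysed genes, both on log axes, with the 10 branched-chain pathway genes in red. The solid line marks the median footprint to RNA ratio of 0.821 and the dotted lines 2-fold above and below it; ILV5 lies just above the upper dotted line and the other 9 genes lie between the lines.

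ILV1 opens the isoleucine branch with threonine deaminase (YER086W, chrV:328477-330207, plus strand, 1 exon of 1731 coding nt). It had 148.5 RPKM of footprints and 179.5 RPKM of RNA, with a density of 0.012. That is the second lowest footprint level of the set and a density at the median gene. The enzyme makes the keto acid that enters the isoleucine branch and is inhibited by isoleucine. A second, catabolic deaminase of serine and threonine is encoded by CHA1, which yeast is known to induce when those amino acids are supplied. CHA1 had 574.5 RPKM of footprints and 373.9 RPKM of RNA, or 3.87 times the footprints and 2.08 times the RNA of ILV1, and a density of 0.90. In this medium the catabolic enzyme's gene therefore had the higher value in both assays.

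Acetolactate synthase consists of the catalytic subunit Ilv2 and the regulatory subunit Ilv6, which strengthens its activity and makes it sensitive to valine. ILV2 (YMR108W, chrXIII:484084-486147, plus strand, 2064 nt) had 435.5 RPKM of footprints and 386.3 RPKM of RNA, with a density of 0.46. ILV6 (YCL009C, chrIII:104619-105548, minus strand, 930 nt) had 431.4 RPKM of footprints and 452.1 RPKM of RNA, with a density of 0.22. Per unit length the subunits had nearly the same footprint level. The ratio of ILV6 to ILV2 was 0.990 in footprints and 1.17 in RNA, so the lower density of ILV6 stood against its higher RNA. The ILV6 coding sequence is the shortest of the set.

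ILV5, the gene of ketol-acid reductoisomerase, was the most abundant of the 10 in both assays (YLR355C, chrXII:838066-839253, minus strand, 1188 nt). It had 3527 RPKM of footprints and 2009 RPKM of RNA, ranks 67 and 73 among all analysed genes. Its density of 1.10 was higher than that of 95.0% of analysed genes. Ilv5 is also known to bind mitochondrial DNA and to help maintain it, a role apart from amino acid synthesis. It had 8.10 times the footprints and 5.20 times the RNA of ILV2, which acts just before it. The next enzyme, dihydroxyacid dehydratase, is an iron-sulfur protein encoded by ILV3 (YJR016C, chrX:464451-466208, minus strand, 1758 nt). ILV3 had 519.5 RPKM of footprints and 670.0 RPKM of RNA, with a density of -0.08. ILV5 thus exceeded it 6.79-fold in footprints and 2.998-fold in RNA. By RNA ILV3 was the third of the set, and by density it was the second lowest.

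Isopropylmalate synthase, the enzyme that commits the valine precursor to leucine and is inhibited by leucine, comes in a main form, Leu4, and a minor form, Leu9. LEU9 (YOR108W, chrXV:523027-524841, plus strand, 1815 nt) had 101.2 RPKM of footprints and 146.2 RPKM of RNA, with a density of -0.25, the lowest value of the set in all 3 measures. LEU4 (YNL104C, chrXIV:424895-426754, minus strand, 1860 nt) had 278.0 RPKM of footprints and 293.6 RPKM of RNA, with a density of 0.21. LEU9 had 0.364 of the footprints and 0.498 of the RNA of LEU4. It made up 26.7% of the summed footprint RPKM of the pair and 33.2% of the summed RNA RPKM. The naming of Leu4 as the main isozyme in the annotation goes with the order of the values in both assays.

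LEU1 encodes isopropylmalate isomerase, a cytosolic iron-sulfur enzyme and the longest coding sequence of the set (YGL009C, chrVII:476313-478652, minus strand, 2340 nt). It had 816.7 RPKM of footprints and 777.8 RPKM of RNA, the second highest of the set in both, and a density of 0.36. The product of LEU1 is the substrate of the enzyme missing from this strain. OAC1, whose mitochondrial carrier is known to bring the leucine precursor out to the cytosol, had 243.4 RPKM of footprints and 200.3 RPKM of RNA, with a density of 0.57.

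The last step is shared by Bat1 in mitochondria and Bat2 in the cytosol. BAT2 (YJR148W, chrX:705744-706874, plus strand, 1131 nt) had 572.4 RPKM of footprints and 503.5 RPKM of RNA, with a density of 0.47. BAT1 (YHR208W, chrVIII:517532-518713, plus strand, 1182 nt) had 645.3 RPKM of footprints and 595.3 RPKM of RNA, with a density of 0.40. BAT2 thus had 0.887 of the footprints and 0.846 of the RNA of BAT1, and 47.0% of their summed footprint RPKM. The annotation describes BAT1 as the form of log-phase cells and BAT2 as that of stationary cells. In this mid-log culture the pair differed by 1.13-fold in footprints and 1.18-fold in RNA.

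Reads from LEU4 and LEU9, or from BAT1 and BAT2, could be shared where their sequences are the same, and the handling of such reads is not given in the sources used here. LEU9 and LEU4 were 79.4% identical over 1808 aligned coding bases, and BAT2 and BAT1 72.2% over 1128. Of all runs of 28 bases in LEU9, 2.63% occurred elsewhere in the genome, and 2.56% of those in LEU4, in each case in the other gene of the pair. None of the runs of 28 bases in the other 8 genes occurred elsewhere in the genome. The longest stretches that each pair has in common are given here in capitals with their flanks, because their length sets whether a read could come from either copy. That of LEU9 and LEU4 is 41 bases long, longer than the 28 bases compared. That of BAT2 and BAT1 is 17 bases long, shorter than them. Sequences are from the RefSeq genome, assembly R64, on the strand of the gene.
LEU9 (chrXV:523831-523901, plus): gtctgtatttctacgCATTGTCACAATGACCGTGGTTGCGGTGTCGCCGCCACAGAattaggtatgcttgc
LEU4 (chrXIV:425877-425947, minus): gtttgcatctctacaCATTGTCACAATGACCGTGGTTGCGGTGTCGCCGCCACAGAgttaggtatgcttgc
BAT2 (chrX:706299-706345, plus): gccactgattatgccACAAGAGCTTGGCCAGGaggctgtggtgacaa
BAT1 (chrVIII:518138-518184, plus): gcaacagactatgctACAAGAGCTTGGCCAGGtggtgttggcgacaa

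The densities of the 10 genes were set beside those of genes of like length and of like RNA level, since density goes with both across the table. Compared by coding length, 9 of the 10 genes lay above the median of their decile of genes and LEU9 lay below it. ILV6 (0.217 where the median was 0.216) and LEU9 (-0.246 where it was -0.213) were close to it. LEU1, in the ninth decile by length, had a density of 0.36 where the decile's median was -0.54. ILV2, in the eighth, had 0.46 where the median was -0.36. Compared by RNA level, the picture turned round. In the decile of highest RNA, which held 8 of the 10, the median density was 0.71, and in the next decile, which held ILV1 and LEU9, it was 0.51. ILV5 lay above the median of its RNA decile and the other 9 genes lay below theirs. With length and RNA level both taken into account by a linear fit over all analysed genes, the median of the 10 was -0.15 relative to the median gene, with ILV2 (0.23) and ILV5 (0.07) above 0 and ILV3 (-0.56) and ILV6 (-0.53) lowest. No overlap with another annotated gene was found for any of the 10.

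**Figure D3:**
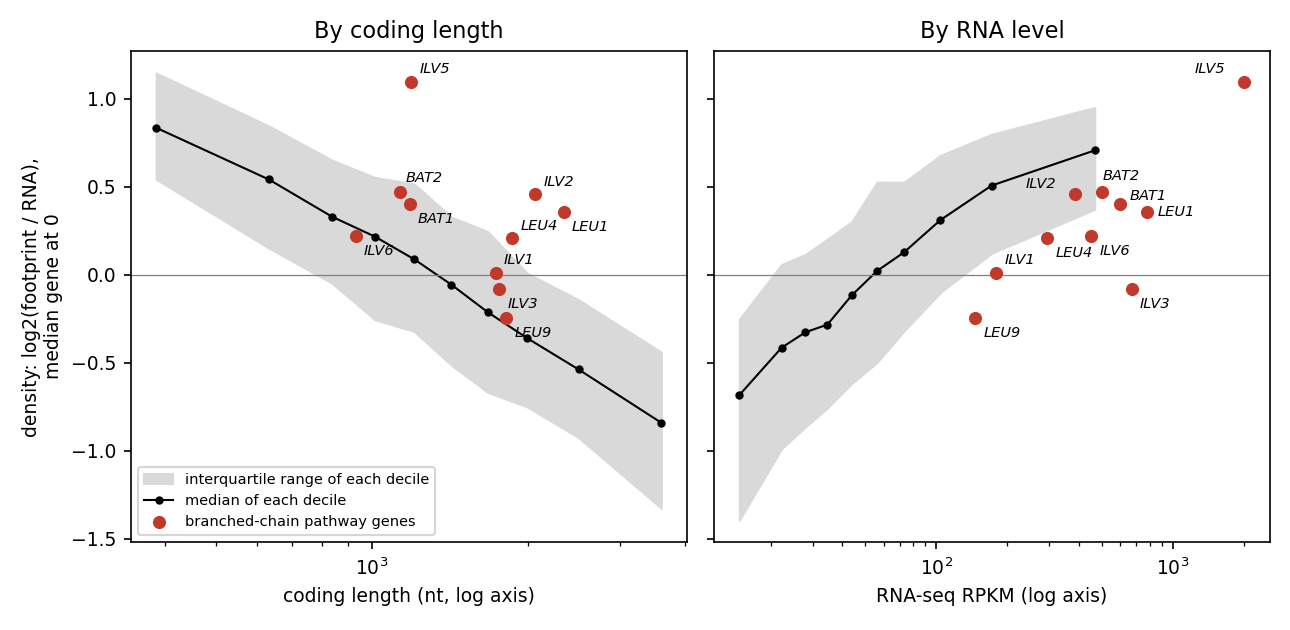
Ribosome density, log2(footprint / RNA) with the median gene at 0, against coding length (left) and RNA-seq RPKM (right), both on log axes. Black points are medians and grey bands interquartile ranges of the deciles of 4642 genes, drawn at each decile's median length or RNA, and red points are the 10 genes. On the left 9 of the 10 lie above the median of their decile, and on the right 9 of the 10 lie below it, ILV5 being the exception.

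Among the 10 genes themselves, footprints followed RNA with a Spearman rho of 0.95. Density had a rho of 0.56 with RNA, which was 0.40 without ILV5, and of -0.25 with coding length. These describe 10 genes measured in the same pair of libraries, and RNA is part of density. Over all analysed genes the rho of density was 0.53 with RNA and -0.62 with coding length. The 3 genes nearest to the median point of the set (475.7 RPKM of footprints, 477.1 RPKM of RNA) in the plane of both log2 levels were VMA8, a subunit of the vacuolar proton pump, YHR020W, a proline tRNA ligase, and ALA1, the alanine tRNA ligase. They lay within 0.052 log2 units of it, over 2 libraries.

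All 10 coding sequences leaned toward the codons of ribosomal protein genes. Codon adaptation was scored as the geometric mean of codon weights taken from 137 ribosomal protein genes, and a preferred codon is the one those genes use most for its amino acid. The all-gene median was 0.198, and all 10 genes scored above it. Over all analysed genes the score had a Spearman rho of 0.63 with RNA, and all 10 stood in the top 20% by RNA. Their scores were not compared with those of genes of like RNA level. ILV5 had 0.832, higher than 99.5% of analysed genes, and BAT2 the lowest score of the set, 0.247. Codon adaptation did not order the densities within the set (Spearman rho of 0.067, n = 10 genes), while over all analysed genes the rho was 0.38. BAT2, with the lowest score, had the second highest density, and ILV3, with the second highest score of 0.441, had the second lowest density. The first 90 coding bases of these genes and of LEU9, the gene of lowest density, show the contrast, with preferred codons in capitals. Of these 30 codons, 18 are preferred in ILV5, 17 in ILV3, 10 in BAT2 and 8 in LEU9.
ILV5 (chrXII:839164-839253, minus): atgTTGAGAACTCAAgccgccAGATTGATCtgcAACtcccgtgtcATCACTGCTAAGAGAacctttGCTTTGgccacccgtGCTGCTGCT
ILV3 (chrX:466119-466208, minus): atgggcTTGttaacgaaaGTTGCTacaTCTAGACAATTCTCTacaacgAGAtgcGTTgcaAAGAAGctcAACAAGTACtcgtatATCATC
BAT2 (chrX:705744-705833, plus): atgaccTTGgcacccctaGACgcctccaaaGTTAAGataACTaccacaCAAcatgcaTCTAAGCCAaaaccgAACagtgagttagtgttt
LEU9 (chrXV:523027-523116, plus): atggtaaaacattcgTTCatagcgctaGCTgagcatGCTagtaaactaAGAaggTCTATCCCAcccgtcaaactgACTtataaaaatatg

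The pathway's own products are spelled with leucine, isoleucine and valine codons, and their use was counted. ILV5 used the preferred codons for 75.0% of its branched-chain residues and LEU9 for 34.9%, against an all-gene median of 29.1%. For leucine alone, TTG filled 29 of 34 leucine codons in ILV5, 21 of 34 in ILV6, 15 of 43 in LEU9 and 10 of 35 in BAT2. Leucine, isoleucine and valine codons together made up 19.2% of ILV5, the lowest share of the set, and 25.0% of ILV1, the highest. The median share of the 10 was 20.7%, against 21.8% over all analysed genes, and 8 of the 10 lay below that all-gene median. The same share had a median of 25.2% in the 5 genes of threonine supply, 23.2% in the lysine genes, 22.9% in the arginine genes and 23.9% in the histidine genes. An A stood 3 bases before the start codon in 4 of the 10 genes, against 61.4% of analysed genes.

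Motifs of the known regulators were looked for before each gene. The 300 bases before each start codon were searched on both strands for TGACTC, the core of the Gcn4 site, and for the Leu3 pattern, CCG and CGG with any 4 bases between them, and no match of one overlapped a match of the other. TGACTC was found in 7 of the 10 windows, against 7.74% of 6020 windows of the same length over the genome. The Leu3 pattern was found in 3 of 10, against 1.56% of windows. LEU9 and BAT1 held both motifs, LEU1 held 2 Leu3 matches and no TGACTC, and ILV2 and BAT2 held neither within this window. Examples are shown with the match in capitals and 10 bases on each side.
ILV5, Gcn4 core (chrXII:839378-839403, minus): tgacctaactTGACTCaatggctttt
ILV3, Gcn4 core (chrX:466328-466353, minus): cctctccagaTGACTCagtaatatag
LEU4, Gcn4 core (chrXIV:426840-426865, minus): tacgtgtaagTGACTCagttctttca
LEU1, Leu3 pattern (chrVII:478850-478879, minus): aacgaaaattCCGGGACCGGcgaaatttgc
LEU1, Leu3 pattern (chrVII:478820-478849, minus): ccggttttgtCCGTAACCGGcttcatgagt
BAT1, Leu3 pattern (chrVIII:517375-517404, plus): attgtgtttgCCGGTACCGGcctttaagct
The genes with and without a match overlapped in RNA level. BAT2, with neither, had 503.5 RPKM of RNA and ILV2 386.3 RPKM, while LEU9, with both, had 146.2 RPKM and BAT1 595.3 RPKM.

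**Figure D4:**
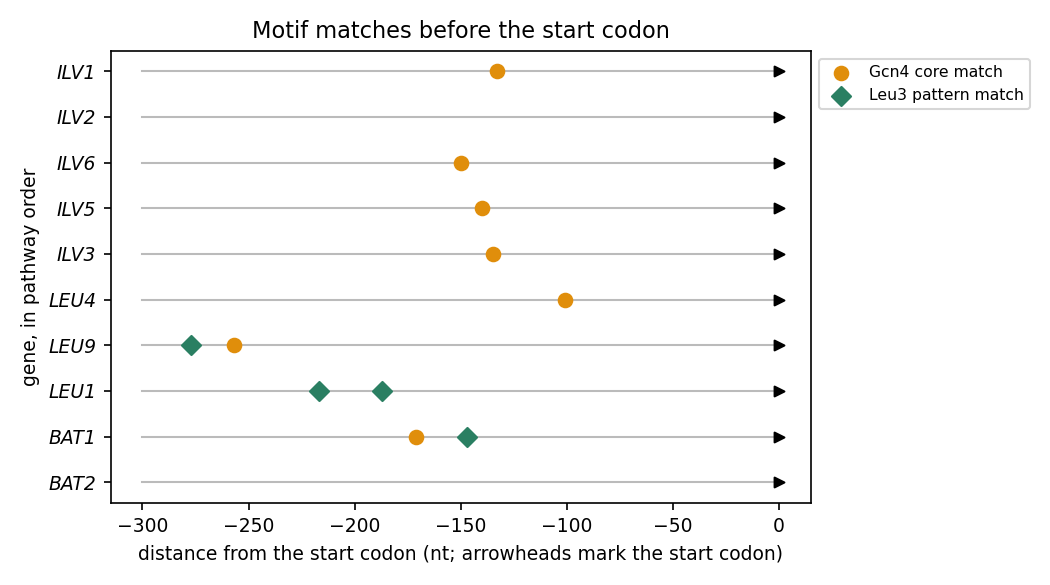
Map of motif matches in the 300 bases before the start codon of each gene, in pathway order, by distance in nt from the start codon to the first base of the match. Circles are Gcn4 core matches, found in 7 of the 10 windows, and diamonds are Leu3 pattern matches, found in 3.

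The genes of the regulators had few footprints, and of the 6 genes on the list of regulators and carriers OAC1 alone lay above the median gene in density. LEU3 had 10.4 RPKM of footprints and 22.4 RPKM of RNA, with a density of -0.82. GCN4 had 27.7 RPKM of footprints and 830.4 RPKM of RNA, more RNA than any of the 10 enzymes but ILV5 and a density of -4.62. The permeases that bring branched-chain amino acids in from the medium were all below the median gene in density. BAP2 had 180.7 RPKM of footprints and 250.9 RPKM of RNA, with a density of -0.19. TAT1 had 157.5 RPKM of footprints and 247.8 RPKM of RNA, with a density of -0.37. BAP3 had 80.2 RPKM of footprints and 112.4 RPKM of RNA, with a density of -0.20. With length adjusted, BAP2 was at 0.08, BAP3 at 0.06 and TAT1 at -0.09. With length and RNA level adjusted, they were at -0.36, -0.15 and -0.53.

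Threonine, the starting point of isoleucine, is made from aspartate by Hom3, Hom2, Hom6, Thr1 and Thr4. All 5 were denser than the median gene (median density 0.70), and HOM2, the gene of aspartate-semialdehyde dehydrogenase, was 1 more gene past 2-fold, at 1.10. HOM3, the gene of aspartate kinase, the feedback-controlled first step, had the lowest level of the 5, with 118.3 RPKM of footprints and 118.7 RPKM of RNA. HOM6, encoding homoserine dehydrogenase, had the highest, with 912.3 RPKM of footprints and 674.3 RPKM of RNA. Both ILV1 and HOM3 were thus low in footprints among the genes of their branches. Other early steps varied: ILV2 and ILV6 had 435.5 and 431.4 RPKM of footprints, and LEU4 and LEU9 278.0 and 101.2 RPKM.

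On the side of use, the tRNA synthetases load the finished amino acids onto their tRNAs. ILS1, the enzyme for isoleucine, had 474.7 RPKM of footprints and 709.8 RPKM of RNA, with a density of -0.30. CDC60, for leucine, had 539.6 RPKM of footprints and 553.0 RPKM of RNA, with a density of 0.25. VAS1, for valine, had 487.2 RPKM of footprints and 658.0 RPKM of RNA, with a density of -0.15. Their footprint levels were close to each other and to the median of 477.5 RPKM of the biosynthetic genes. The synthetase coding sequences are long (3219 to 3315 nt). With length adjusted, the densities were 0.38 for ILS1, 0.94 for CDC60 and 0.55 for VAS1. With length and RNA level adjusted, they were -0.44, 0.19 and -0.25. Of the decarboxylases that can take branched-chain keto acids toward fusel alcohols, PDC1, the main pyruvate decarboxylase, had 22000 RPKM of footprints and 17272 RPKM of RNA. ARO10 had 27.2 RPKM of footprints and 30.9 RPKM of RNA, and THI3 had 5.64 RPKM of footprints and 20.7 RPKM of RNA, with a density of -1.59. PDC5 and PDC6 are not among the listed genes.

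The lysine, arginine and histidine pathways had lower median levels than the branched-chain genes, while the threonine supply genes had a higher median footprint level (622.7 RPKM) and a similar median RNA level (448.4 RPKM). The densities of these pathways overlapped, and no difference between them has a test. The median footprint level was 477.5 RPKM in the 10 branched-chain genes, 93.7 RPKM in 6 listed lysine genes, 39.3 RPKM in 8 arginine genes and 107.5 RPKM in 7 histidine genes. The median RNA level was 477.8 RPKM in the branched-chain genes, 95.8 RPKM in the lysine genes, 47.8 RPKM in the arginine genes and 82.9 RPKM in the histidine genes. The median density was 0.29, against -0.012 for lysine, -0.40 for arginine and 0.66 for histidine synthesis. This order depended on length and RNA level. With length adjusted, the medians were 0.37 for the branched-chain genes, 0.42 for lysine, -0.12 for arginine and 0.50 for histidine. With length and RNA level adjusted, they were -0.15, 0.23, -0.071 and 0.29, the branched-chain genes being lowest. The histidine genes include HIS3 (density 0.80), which is deleted in part in this strain. The range of density was narrower in the branched-chain genes (-0.25 to 1.10) than in the lysine genes, from LYS5 (-1.48) to LYS1 (1.20), and the arginine genes, from ARG8 (-1.41) to ARG1 (0.81). LYS5 (5.09 RPKM of footprints) and ARG8 (9.94 RPKM) were scarce, while the lowest of the 10 had 101.2 RPKM. The histidine genes ran over a narrower range than the branched-chain genes, from HIS2 (-0.29) to HIS6 (0.85). So did the threonine supply genes (0.28 to 1.10). LYS20, LYS21 and ARG3 are not among the listed genes.

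**Figure D5:**
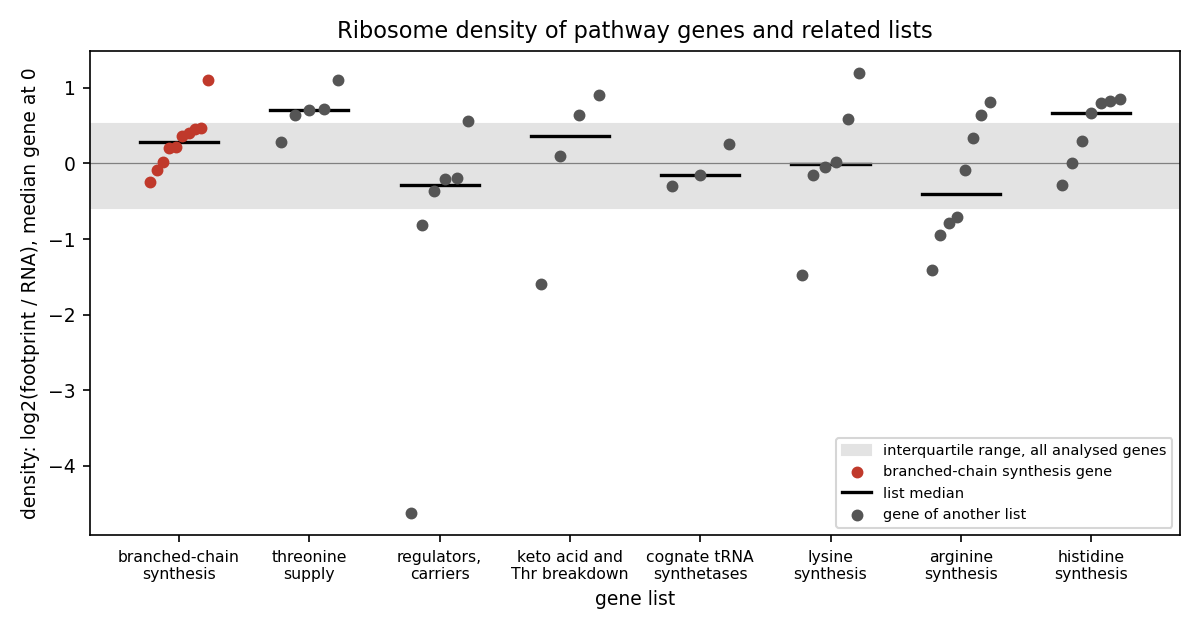
Ribosome density of each listed gene in the branched-chain set (red) and in 7 related lists (grey), with list medians as black bars and the interquartile range of all analysed genes as a grey band. The branched-chain genes lie between -0.25 and 1.10 around a median of 0.29, and GCN4 is the low point at -4.62 among the regulators and carriers.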

How the data were processed

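Ribosome footprints and RNA were each sequenced from 1 library, so replicate error is unknown and genes are not treated as replicates. The RPKM values of both assays were computed by the authors, and so was the log2 ratio of footprint to RNA; per the file headers, genes were kept with at least 10 RPM of RNA and more than 0 RPM of footprints. The deposited log2 column differed from the log2 ratio of the RPKM columns by at most 1.63e-09. The build is sacCer3, per the submitters' processing notes, which is assembly R64. The aligner was not given in the sources used here, nor were the counting rule and its use of strand.

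All 4685 identifiers matched a locus of the RefSeq R64 annotation, which gave symbols, coordinates, coding lengths and sequences. Density was log2(footprint RPKM / RNA RPKM) without a pseudocount, centred on the median of the 4642 genes whose mean RPKM reached 5. Length and RNA adjustments were linear fits over all of these genes. The fit on length alone was tested on simulated data, and the fit with RNA was not. Branched-chain residues were counted as codons and paralogues compared as coding sequences, since no protein table was used. Codon weights had 0.5 added to each count. The named genes were the 10 members, genes of the related lists, the extremes of the lysine, arginine and histidine lists, and the 3 genes nearest to the members in both levels. Other centring, filters, a pseudocount, a 1.5-fold limit, other weights and leaving out paralogues were tried. The genes and lists were chosen with earlier results of these data known. Python 3.11.15, pandas 2.3.3, numpy 2.4.6 and Biopython 1.88 were used.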

Additional observations from a re-analysis of the deposited data

How the results depend on the processing

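No paired analysis was possible because each assay has 1 library. The place of the genes against the median gene depended on what they were set against. With density centred on total footprint over total RNA, the median of the 10 was -0.091, with 4 genes above 0 and 0 past 2-fold. LEU1, at -0.02 there, was denser than 67.3% of analysed genes and BAT1, at 0.02, than 69.4%, so 0 no longer marked the median gene. With length alone adjusted, the median of the 10 was 0.37, with 9 genes above 0, ILV6 (-0.005) below it and 1 gene past 2-fold above. With length and RNA adjusted, the median was -0.15, with 2 genes above 0 and 0 past 2-fold above. With the filter raised to 20 RPKM, the median of the 10 was 0.10, with 0 genes past 2-fold above. The share of all genes past 2-fold was not worked out for these alternatives. Without the paralogue pairs 5 of 6 genes lay above the median gene. No alternative put a gene past 2-fold below the median gene. Using no filter or adding 1 to both values moved no density by over 0.1. The set's share of listed footprints was 0.696% and of RNA 0.738% by summed RPKM, and 0.671% and 0.728% without ILV5. The footprint ratio of ILV6 to ILV2 was 0.446 by RPKM times coding length. Depth is unknown, and so is counting error.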
